A study of Mus musculus with 220 samples.

Results

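The transcripts of 4 flavin-containing monooxygenase genes, Fmo1, Fmo2, Fmo4 and Fmo5, were followed in liver across the maternal strains of a mouse diversity panel for atherosclerosis. They were chosen by name, as 4 of the 17097 genes that had a probe set with a single symbol, and all 9 of their probe sets were kept. The 220 animals were female F1 mice whose mothers came from 96 strains. Their sires were C57BL/6J mice transgenic for human APOE-Leiden and human CETP, per the study's methods heterozygous for the first transgene and homozygous for the second. All mice thus shared 1 C57BL/6J genome and carried both transgenes. A maternal allele that differs from that of C57BL/6J was therefore present in 1 copy. Mice with C57BL/6J mothers have no such alleles, and those with recombinant mothers have them in part of the genome. All ate chow for 8 weeks and then a Western diet rich in fat and cholesterol for 16 weeks, and livers were collected at 24 weeks of age. The mothers belonged to 4 recombinant inbred panels, or were classical inbred strains (29 strains with 65 mice). The recombinant strains descend from C57BL/6J and a second progenitor, which was DBA/2J for BXD (34 strains with 83 mice), A/J for AXB/BXA (21 with 47), BALB/cJ for CXB (8 with 17) and C3H/HeJ for BXH (4 with 8). A strain had 1 mouse in 9 cases, 2 in 51, 3 in 35 and 4 in 1 case, and each mouse had 1 array. Values are log2 signals after robust multi-array averaging (RMA), on which the median probe set mean was 3.46.

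Flavin-containing monooxygenases are enzymes of the endoplasmic reticulum that use NADPH, FAD and molecular oxygen to oxygenate soft nucleophiles such as tertiary amines and sulfides. In liver, enzymes of this family turn trimethylamine, which gut microbes release from choline and carnitine, into trimethylamine N-oxide (TMAO), a metabolite linked to atherosclerosis. FMO1 accepts a broad range of amines and sulfides and also oxidises hypotaurine to taurine, FMO2 is best known from lung, FMO4 is poorly characterised, and FMO5 acts largely as a Baeyer-Villiger monooxygenase. In the RefSeq annotation Fmo4, Fmo1 and Fmo2 follow each other on chromosome 1 with 0 other protein-coding genes between neighbours, while Fmo5 lies on chromosome 3.

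The sequences before the annotated starts are printed because the strain differences described next concern transcript levels of these neighbouring genes. RefSeq windows of assembly GRCm38.p6 were found by symbol for Fmo4, Fmo2 (2 starts) and Fmo5, and Fmo1 is named only. Each line holds the 250 bases before a start, 5′ to 3′, in the letters of the C57BL/6J reference. Capitals mark matches on either strand to the TATA box letters TATAAA, the CCAAT box letters CCAAT, the nuclear receptor core letters AGGTCA or the HNF1 core letters GTTAAT.
Fmo4, chr1:162812550-162812799, minus strand: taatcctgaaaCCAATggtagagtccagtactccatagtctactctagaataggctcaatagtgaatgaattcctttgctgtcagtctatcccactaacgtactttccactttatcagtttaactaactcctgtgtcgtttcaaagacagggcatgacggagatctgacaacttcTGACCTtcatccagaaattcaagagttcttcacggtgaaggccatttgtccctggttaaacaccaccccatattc
Fmo2, first start listed, chr1:162898494-162898743, minus strand: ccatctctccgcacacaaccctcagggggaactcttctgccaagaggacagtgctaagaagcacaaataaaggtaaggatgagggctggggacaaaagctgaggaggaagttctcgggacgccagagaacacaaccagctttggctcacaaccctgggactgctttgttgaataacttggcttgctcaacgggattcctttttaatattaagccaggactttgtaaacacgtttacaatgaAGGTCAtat
Fmo5, chr3:97628769-97629018, plus strand: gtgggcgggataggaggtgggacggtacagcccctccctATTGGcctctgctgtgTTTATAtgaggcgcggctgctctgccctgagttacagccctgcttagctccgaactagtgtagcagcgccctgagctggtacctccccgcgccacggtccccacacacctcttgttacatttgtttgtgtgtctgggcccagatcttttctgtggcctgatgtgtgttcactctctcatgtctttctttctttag
The Fmo5 window held 1 TATAAA and 1 CCAAT match, the Fmo4 window 1 CCAAT and 1 AGGTCA match and the Fmo2 window 1 AGGTCA match, while the window of the other Fmo2 start held 0. GTTAAT was found in 0 of the windows. Over all 32851 windows of this length 12.4% held TATAAA, 33.8% CCAAT, 14.0% AGGTCA and 6.43% GTTAAT. The GC content was 42.4% before Fmo4, 47.6% before Fmo2 and 56.0% before Fmo5. The matches describe letters and not bound sites.

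The tissue was checked against marker genes. Of 8 hepatocyte markers 7 had a mean above the median probe set mean, with albumin (Alb) at 13.52, and the exception was Pck1 at 2.92. The markers of lung and kidney, organs with prominent Fmo expression, were at low signal: 0 of 4 measured lung markers and 0 of 3 measured kidney markers lay above that median, and their highest means were 3.35 and 2.93. Liver pieces hold several cell types, so fewer cells of a type and less RNA per cell cannot be told apart. No pair of arrays was identical (0 pairs).

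The first question was how strongly each gene differed among maternal strains. Fmo2 had the widest range of the 4 genes. On its brightest probe set (1422905_PM_s_at) mice lay between 5.94 and 9.03 around a median of 7.59, and strain means between 6.32 in 129X1/SvJ and 8.83 in BXA11/PgnJ, a 5.71-fold range. Fmo4 (1425799_PM_at, its only probe set) had strain means between 4.05 in CXB2/ByJ and 5.86 in BXD22/TyJ, a difference of 1.81 on the log2 scale, with mice between 3.86 and 5.94. Fmo1 varied over a narrower range, while the range of Fmo5 depended on the probe set. Strain means of Fmo1 (1417429_PM_at, its only probe set) lay between 10.44 in AXB15/PgnJ and 11.18 in BXD5/TyJ (1.67-fold), and those of Fmo5 (1450332_PM_s_at) between 10.45 in BXD55/RwwJ and 11.32 in CXB8/HiAJ (1.83-fold). The other Fmo5 probe sets spanned 3.51-fold (1440899_PM_at) and 3.13-fold (1421709_PM_a_at). Mice of a strain differed least for Fmo1, with an SD within strains of 0.12, against 0.17 for Fmo5, 0.27 for Fmo4 and 0.36 for Fmo2. No probe set's level is set against that of another gene here, since probes differ in brightness.

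Strains differed for 8 of the 9 probe sets, beside 47.9% of all probe sets (moderated F-test of limma, a linear model fitted to every probe set, over the 87 strains with 2 or more mice, adjusted p under 0.05 after Benjamini-Hochberg over all probe sets). Adjusted p was 2.66e-16 for Fmo1, 2.56e-14 for Fmo2, 4.25e-09 for Fmo4 and 4.52e-09 for Fmo5. The exception was the Fmo2 probe set 1454005_PM_at (adjusted p = 0.182), whose mean of 2.87 lay below the median of all probe sets. The resemblance of mice of a strain was measured as the part of the variance that lay between strains. On the brightest probe sets this share was 0.65 for Fmo1 (95% interval 0.53 to 0.75) and 0.59 for Fmo2 (0.46 to 0.70). It was 0.48 for Fmo5 (0.33 to 0.61) and 0.47 for Fmo4 (0.32 to 0.60). These intervals overlapped, and differences in share between the genes were not tested. The order of Fmo2 and Fmo5 depended on the probe set. Their other probe sets gave 0.49, 0.46 and 0.10 for Fmo2 and 0.52 and 0.49 for Fmo5. With the mean of all probe sets of a gene the share was 0.48 for Fmo2 and 0.50 for Fmo5. The median share over probe sets of above-median mean was 0.37. Litter, cage and collection day are not in the labels, and their part in these shares was not tested.

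**Figure D1:**
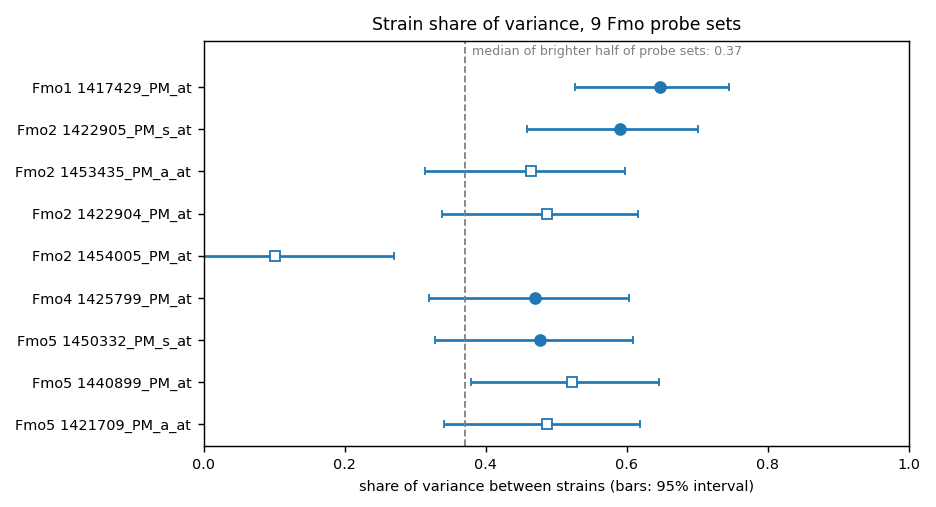
Share of variance between strains of each Fmo probe set with its 95% interval; filled circles mark the brightest probe set of a gene, open squares the others, and the dashed line the median over probe sets of above-median mean (0.37). Fmo1 lies highest at 0.65 and the dim Fmo2 probe set 1454005_PM_at lowest at 0.10.

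Strains next to each other in rank could rarely be told apart. Of the 95 pairs of strains adjacent in rank, 0 pairs for Fmo1, Fmo4 and Fmo5 and 2 pairs for Fmo2 were apart by more than the standard error of their difference, and the gaps between 96 sorted means are small by construction. Strains at the ends stood apart from the rest when each was set against the mean of the other 95 strains. On the brightest probe sets 38 of 384 such contrasts were called, 21 higher and 17 lower, beside 3.81% of all contrasts over all probe sets (1.97% higher and 1.83% lower). They fell on 31 strains, of which 6 were called for 2 or more genes. BUB/BnJ was the 1 strain called for 3 genes, with Fmo1, Fmo2 and Fmo5 all higher.

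Fmo1 was highest in BXD5/TyJ, whose mice had 11.10, 11.19 and 11.25. The difference from the mean of the other strains was 0.35 (SE 0.07, adjusted p = 2.82e-04) in limma. BXD50/RwwJ (11.06 and 11.28), BUB/BnJ (10.94, 11.15 and 11.37), CXB13/HiAJ (11.08 and 11.16) and SM/J (11.08 and 11.16) were also called higher, as were BTBR T<+> tf/J and FVB/NJ, and the single BXD29/TyJ mouse (11.17) was not called. At the low end 4 strains of 1 panel stood together. AXB15/PgnJ had 10.38, 10.39 and 10.54, a difference of −0.40 (SE 0.07, adjusted p = 5.1e-06). BXA14/PgnJ had 10.20, 10.62 and 10.56, AXB19b/PgnJ 10.47, 10.44 and 10.52 and AXB6/PgnJ 10.42, 10.64 and 10.48, and all were called lower. CXB7/ByJ, CXB8/HiAJ and BXH22/KccJ were called lower as well, and the single AXB5/PgnJ mouse (10.52) was not. With arrays centred on their medians the calls of BXH22/KccJ, CXB13/HiAJ and FVB/NJ were lost (adjusted p = 0.0637, 0.0501 and 0.0518 in limma).

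Fmo2 differed most in BXA11/PgnJ (9.03 and 8.64) and BUB/BnJ (8.72, 8.61 and 8.90), which were above the mean of the other strains by 1.27 (SE 0.25, adjusted p = 2.89e-04) and 1.18 (SE 0.21, adjusted p = 1.08e-05) in limma. NOD/ShiLtJ (8.79 and 8.00), SEA/GnJ (8.36, 8.39 and 8.27), BXD75/RwwJ (8.38 and 8.23), AXB2/PgnJ (8.19, 8.21 and 8.50) and LG/J (8.05, 8.34 and 8.37) were also called higher. The mice of FVB/NJ, called higher too, were spread widely (9.01, 7.71 and 7.97), and BXA2/PgnJ (8.26 and 8.53) ranked 3 from the top but was not called. The lowest strains were 129X1/SvJ (6.69 and 5.94), BXD32/TyJ (6.51, 6.37 and 6.10) and BXD69/RwwJ (6.21, 6.26 and 6.62). Their differences were −1.27, −1.26 and −1.22, and BXD11/TyJ (6.81, 6.68 and 6.89) was also called lower. No mouse of these low strains reached any mouse of the high strains named, but the strains were picked by these same values, so this adds no evidence.

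Fmo4 was called higher in BXD22/TyJ, which had 1 mouse at 5.86, so that this call takes its spread from the other strains alone, and in BXD5/TyJ (5.43, 5.82 and 5.80), BXD50/RwwJ (5.53 and 5.66) and BTBR T<+> tf/J (5.29, 5.07 and 5.94). It was called lower in CXB2/ByJ (4.25 and 3.86) and C57BLKS/J (3.95 and 4.21). The difference was 0.84 (SE 0.16, adjusted p = 7.8e-05) in BXD5/TyJ and −0.79 (SE 0.19, adjusted p = 0.00371) in C57BLKS/J by limma. BXD5/TyJ, BXD50/RwwJ and BTBR T<+> tf/J were thus called higher for Fmo1 and for its neighbour Fmo4. PL/J, with 1 mouse at 5.61, ranked 3 from the top and was not called.

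Fmo5 was called higher in CXB8/HiAJ (11.30, 11.53 and 11.13) and BUB/BnJ (11.17, 11.30 and 11.42). It was called lower in BXD55/RwwJ (10.60, 10.56 and 10.19), SWR/J (10.35 and 10.62), BXD20/TyJ (10.64, 10.72, 10.33 and 10.45) and BXD73/RwwJ (10.63, 10.22 and 10.78). All mice of the low strains lay below all mice of the high strains, which again were picked by these values. The difference was 0.43 (SE 0.10, adjusted p = 0.00127) in CXB8/HiAJ and −0.45 (SE 0.10, adjusted p = 2.08e-04) in BXD55/RwwJ by limma. CXB8/HiAJ, highest for Fmo5, was called lower for Fmo1 (10.59, 10.59 and 10.66).

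**Figure D2:**
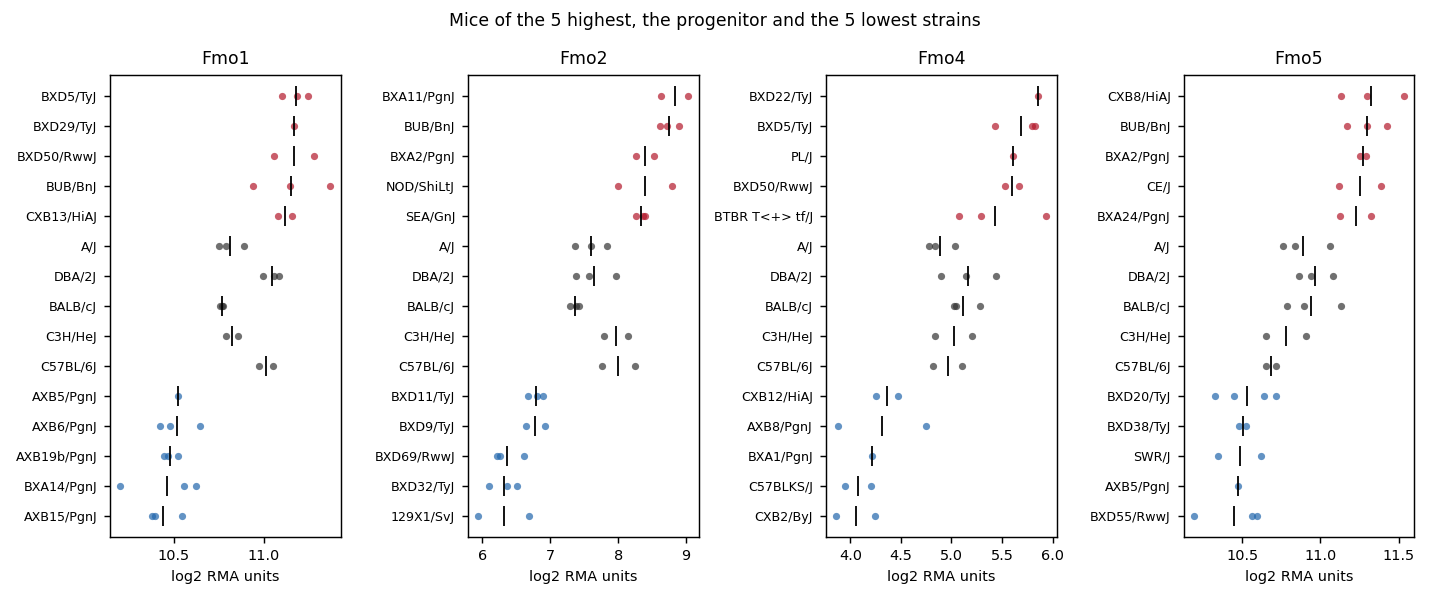
Signal of each mouse (points, log2 RMA units) and strain mean (bars) on the brightest probe set of each gene, in the 5 highest strains (red), the progenitors and C57BL/6J (grey) and the 5 lowest strains (blue). Fmo2 strain means span 6.32 to 8.83, and the progenitor means lie between the extremes for every gene.

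Different probe sets of a gene did not always rank strains alike. The Fmo2 probe sets 1422905_PM_s_at and 1422904_PM_at agreed closely (r = 0.96 over 96 strain means). Probe set 1453435_PM_a_at followed them less closely across strains (r = 0.52 and 0.61) than among mice of a strain (r = 0.81 and 0.78). All of these placed 129X1/SvJ lowest, at 6.32, 5.92 and 6.17. The Fmo5 probe sets correlated with r between 0.81 and 0.87, but NOD/ShiLtJ set them apart. On 1440899_PM_at this strain was lowest, at 8.32 and 9.09, with a difference from the other strains of −1.13 (SE 0.17, adjusted p = 4.16e-07) in limma. On 1450332_PM_s_at its mice had 10.43 and 10.89 and on 1421709_PM_a_at 8.13 and 8.61, and neither passed (adjusted p = 0.194 and 0.741 in limma). The cause of such disagreement between probe sets was not tested. A strain difference seen on a single probe set may therefore not be one of transcript level. Fmo1 and Fmo4 had 1 probe set each, so their strain differences could not be checked in this way.

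The progenitors of the panels were compared with C57BL/6J. The 4 contrasts share the 2 C57BL/6J mice. Fmo1 had 10.77, 10.77 and 10.76 in BALB/cJ, 10.89, 10.75 and 10.79 in A/J, 10.86 and 10.79 in C3H/HeJ and 11.06, 10.998 and 11.09 in DBA/2J, against 11.05 and 10.97 in C57BL/6J. All mice of BALB/cJ, A/J and C3H/HeJ lay below both C57BL/6J mice, while those of DBA/2J overlapped with them. Groups this small can separate fully by chance, and the share of all probe sets that separated as fully was not tested. The separation is therefore a description and adds no evidence of a difference. The difference was −0.25 in BALB/cJ (95% interval −0.46 to −0.03), −0.20 in A/J (−0.42 to 0.01), −0.19 in C3H/HeJ (−0.43 to 0.05) and 0.03 in DBA/2J (−0.18 to 0.25). None passed the threshold (limma adjusted p = 0.18 in BALB/cJ, the lowest of these).

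Fmo2 had 7.43, 7.38 and 7.30 in BALB/cJ, 7.84, 7.36 and 7.60 in A/J, 7.38, 7.57 and 7.97 in DBA/2J and 7.80 and 8.15 in C3H/HeJ, against 8.25 and 7.76 in C57BL/6J. Only in BALB/cJ did every mouse lie below both C57BL/6J mice, and the difference there was −0.63 (−1.28 to 0.01). It was −0.40 in A/J, −0.36 in DBA/2J and −0.03 in C3H/HeJ. The direction turned with the probe set, since 1453435_PM_a_at gave 0.16 in BALB/cJ, 0.20 in DBA/2J and 0.12 in C3H/HeJ. On its brightest probe set Fmo5 had 10.87, 10.94 and 11.08 in DBA/2J, against 10.71 and 10.65 in C57BL/6J, a difference of 0.28 (−0.03 to 0.58), with 0.25 in BALB/cJ, 0.20 in A/J and 0.10 in C3H/HeJ. On this probe set all values of DBA/2J, BALB/cJ and A/J mice were above both C57BL/6J mice, and those of C3H/HeJ overlapped with them. As for Fmo1, these separations of Fmo2 and Fmo5 are descriptions of small groups and add no evidence of a difference. The other Fmo5 probe sets turned the direction, with −0.15 (1440899_PM_at) and −0.26 (1421709_PM_a_at) in A/J and with −0.39 and −0.26 in C3H/HeJ, and 1421709_PM_a_at gave −0.033 in BALB/cJ. For Fmo4, where every progenitor overlapped with C57BL/6J, the differences from it were 0.20 in DBA/2J, 0.16 in BALB/cJ, 0.06 in C3H/HeJ and −0.08 in A/J.

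In each of the 4 contrasts 0 of the 9 probe sets were called by limma, beside 7.63% of all probe sets in A/J, 1.86% in DBA/2J, 6.94% in BALB/cJ and 5.87% in C3H/HeJ. At an unadjusted p under 0.05 there was 1, Fmo1 in BALB/cJ. The intervals for Fmo2 were wide, reaching −1.28 in BALB/cJ.

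The panels were compared over strain means. Strains of a recombinant panel share progenitors, so these units are not fully independent. Fmo1 averaged 10.73 ± 0.17 in AXB/BXA strains, against 10.93 ± 0.12 in classical inbred strains (SD, n = 21 and 29 strains). It was lower by 0.20 on the log2 scale (SE 0.04, limma adjusted p = 0.00235). This was 1 of 9 probe sets called in that contrast, beside 4.65% of all (2.49% lower). The strain ranges overlapped, with 10.44 to 11.08 in AXB/BXA and 10.62 to 11.15 in classical strains. CXB strains averaged 10.70 ± 0.20, BXH strains 10.69 ± 0.12 and BXD strains 10.87 ± 0.16, with limma adjusted p of 0.075, 0.524 and 0.633 against the classical strains. With mice as units and strain as a random block, Fmo1 in CXB passed (limma adjusted p = 0.00196). That fit used 1 correlation of mice within strains, 0.183, for all probe sets. The between-strain share of Fmo1 was 0.65, so this p may be too small. In the main test 0 of 9 probe sets were called in BXD, CXB and BXH, beside 1.01%, 0.173% and 0.00444% of all, with 3, 6 and 1 at an unadjusted p under 0.05.

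Among the 5 panels together 3 of 9 probe sets differed, beside 6.77% of all. These were the brightest ones of Fmo1, Fmo5 and Fmo4 (limma adjusted p = 9.19e-04, 0.032 and 0.0361). Fmo5 averaged 11.09 ± 0.17 in CXB, 10.97 ± 0.07 in BXH, 10.88 ± 0.20 in AXB/BXA and 10.81 ± 0.16 in BXD strains, against 10.94 ± 0.21 in classical strains. Its other probe sets were not called (limma adjusted p = 0.152 and 0.0552). Fmo4 averaged 4.995 ± 0.36 in BXD, 4.79 ± 0.15 in BXH, 4.71 ± 0.26 in AXB/BXA and 4.58 ± 0.32 in CXB strains, against 4.90 ± 0.31 in classical strains. Over strains with 2 or more mice the Fmo4 call was lost (limma adjusted p = 0.16). Fmo2 averaged 7.78 ± 0.45 in AXB/BXA and 7.40 ± 0.46 in BXD strains, against 7.70 ± 0.50 in classical strains, and was not called (limma adjusted p = 0.105). It passed with mice as units and strain as a random block (limma adjusted p = 0.00373). That fit took the correlation of mice of a strain as 0.183, against a share of 0.59 for Fmo2, so this p may be too small.

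**Figure D3:**
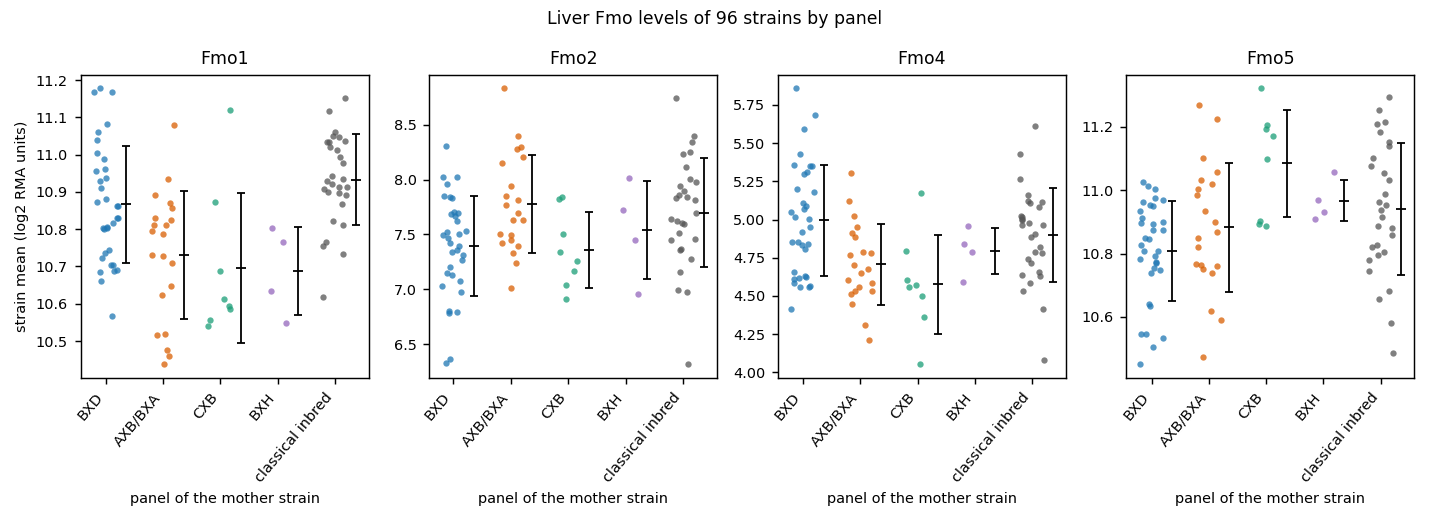
Strain means (points, log2 RMA units) of the brightest probe set of each gene by panel of the mother, with the mean and SD of each panel. Fmo1 averaged 10.73 in AXB/BXA and 10.70 in CXB strains, against 10.93 in classical inbred strains.

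Differences among strains of a single panel were tested next. In BXD 7 of 9 probe sets differed among strains, beside 32.5% of all, and in AXB/BXA 7 of 9, beside 21.7%. In AXB/BXA the between-strain share reached 0.74 for Fmo2 (limma adjusted p = 4.31e-06) and 0.67 for Fmo1 (5.08e-04), and Fmo4 was not called (0.0848). In BXD the shares were 0.57 for Fmo1 and 0.52 for Fmo2 (limma adjusted p = 3.6e-05 and 2.86e-05). In CXB 1 of 9 was called, beside 1.71% of all, and this was Fmo4 with a share of 0.76 (limma adjusted p = 0.0365), which was lost without replicate 3 (adjusted p = 0.0968). In BXH 0 of 9 were called by limma, beside 1.15% of all, with 1 at an unadjusted p under 0.05. Among classical strains 8 of 9 were called, beside 35.4%. Without replicate 2 of each strain, which leaves fewer strains with 2 mice, 6 calls were left in BXD, AXB/BXA and classical strains together, against 22 with all mice.

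Strain means of Fmo2 went beyond those of both progenitors in these panels. BXD strains reached 6.33 in BXD32/TyJ and 8.31 in BXD75/RwwJ, while DBA/2J averaged 7.64 and C57BL/6J 8.00. AXB/BXA strains reached 7.01 in BXA16/PgnJ and 8.83 in BXA11/PgnJ, while A/J averaged 7.60. This is a description of the outermost of many strains, with no test.

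The genes were then compared with each other over the 96 strain means, in 6 pairs. Fmo1 and Fmo4 were positively correlated (r = 0.56, rho = 0.55), with a permutation p of 1e-05 for each, the smallest that 100000 resamples can give (adjusted p = 6e-05 over the 6 pairs). Without the 2 strains farthest from the Fmo1 median r was 0.54, and with panel means removed it was 0.50. Within panels r was 0.54 in BXD (permutation adjusted p = 0.0242 over 24 within-panel pairs), and 0.47 in AXB/BXA, 0.75 in CXB and 0.40 in classical strains, where it did not pass. Recombinant strains of a panel share progenitors and are not fully independent.

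Fmo4 and Fmo5 were inversely correlated (r = −0.26, rho = −0.29, permutation adjusted p = 0.0333 and 0.0145). The call did not hold without the 2 strains farthest from the median (r = −0.24, permutation adjusted p = 0.0566), where r was nearly as large. Nor did it hold with panel means removed (r = −0.17, permutation adjusted p = 0.265). Within panels r was −0.40 in classical strains, −0.07 in BXD and −0.03 in AXB/BXA. The other 4 pairs had r between −0.09 and 0.12, and none passed.

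Among mice of a strain, taken as deviations from the strain mean, Fmo1 was correlated with Fmo2 (r = 0.35, adjusted p = 0.0012 by permutation within strains) and with Fmo4 (r = 0.33, permutation adjusted p = 0.00249). By panel the first of these was 0.45 in classical strains, 0.35 in BXD and −0.004 in AXB/BXA, and the second 0.16, 0.45 and 0.39. None of these r passed within a panel, while by rank Fmo1 with Fmo2 passed in classical strains (rho = 0.52, permutation adjusted p = 0.0277) and Fmo1 with Fmo4 in BXD (rho = 0.44, permutation adjusted p = 0.0277). Over strain means Fmo1 and Fmo2 had r = 0.12, and the difference between the r at these levels was not tested. In classical strains Fmo4 and Fmo5 ran opposite among mice of a strain (r = −0.55, permutation adjusted p = 0.0021 over 30 within-panel pairs), against −0.17 over all strains, which did not pass (permutation adjusted p = 0.0809).

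The relation of Fmo2 and Fmo5 differed between panels. Over strain means r was −0.41 in BXD (34 strains) and 0.50 in AXB/BXA (21 strains). The difference of −0.92 had p = 9.6e-04 by permutation of the panel labels and an adjusted p of 0.0173 over 18 such differences, and the other 17 did not pass. Neither r passed by itself (permutation adjusted p = 0.12 for each), and without the 2 strains farthest from the Fmo2 median they were −0.34 and 0.33.

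**Figure D4:**
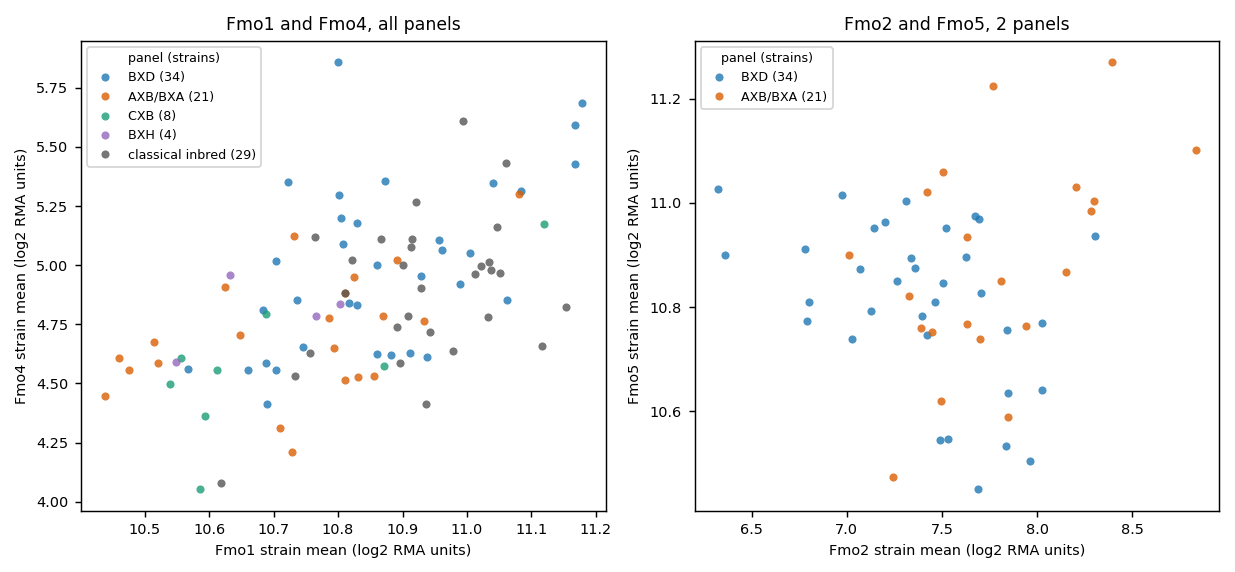
Strain means (log2 RMA units) of Fmo1 and Fmo4 in all 96 strains, and of Fmo2 and Fmo5 in BXD and in AXB/BXA strains; each point is a strain. Fmo1 and Fmo4 go together (r = 0.56), while Fmo2 and Fmo5 have r = −0.41 in BXD and 0.50 in AXB/BXA.

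The genes whose strain means were most like each member were sought among 10473 genes of above-median signal, as a description. Fmo1 was closest to Slc10a1 (r = 0.75), the hepatocyte bile acid uptake carrier, Pecr (0.75), a peroxisomal enoyl-CoA reductase, Ugt2a3 (0.75), a glucuronosyltransferase, Maob (0.74), a mitochondrial amine oxidase, and Prr16 (0.74). It was most opposed to D17H6S56E-5 (−0.70), Specc1 (−0.69) and Stmn1 (−0.69), which encodes the microtubule regulator stathmin. Fmo1 had r above 0.5 with 637 genes and below −0.5 with 873. These counts were 22 and 3 for Fmo4, 17 and 20 for Fmo5, and 1 and 1 for Fmo2.

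Genes of the same chromosome were among the closest for each member. For Fmo1 this was Pecr, on chromosome 1 with 547 protein-coding genes between. The share of all compared genes that lie on these chromosomes is not given here, so this is a description. Fmo4 was closest to Rassf6 (0.61), then to its neighbour Fmo1 (0.56) and to Tmco1 (0.54), a calcium channel of the endoplasmic reticulum that lies on chromosome 1 with 46 protein-coding genes between, followed by Mtx2 (0.54) and Depdc7 (0.53). It was most opposed to Nxf1 (−0.53), the mRNA export factor, Trim27 (−0.51) and Atp6v0b (−0.50). Fmo2 was closest to 4930523C07Rik (0.60) on chromosome 1 with 28 genes between, Ptch1 (0.49), the Hedgehog receptor, and Rc3h1 (0.48), 22 genes away, then to Ggt6 (0.47) and Grb7 (0.46). Its most opposed genes were Nipa2 (−0.52), Pparg (−0.49), a lipogenic nuclear receptor, and Gnl3l (−0.49). Fmo5 was closest to Plin4 (0.60), which coats lipid droplets, and to Chd1l (0.57), a chromatin remodeller with 0 protein-coding genes between the pair on chromosome 3, then to Tmem120a (0.56), Klf13 (0.56) and Dus1l (0.56). It was most opposed to Fermt2 (−0.69), the integrin activator kindlin-2, Ank (−0.61) and Utp11 (−0.59). All these r are over the same livers, and nearby genes also share haplotypes.

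Genes of substrate supply, bile acid handling, microsomal oxidation and liver transcription control were grouped in 7 lists. Of their 64 measured genes 60 differed among strains in the limma F-test, beside 47.9% of all probe sets. Most had above-median signal, where the median share of variance was 0.37, against 0.148 over all probe sets. The counts per list are to be read beside this. In choline oxidation and betaine metabolism, which converts choline to betaine and passes on its methyl groups, 7 of 7 differed. The largest shares of variance were those of Sardh (0.68), sarcosine dehydrogenase, Dmgdh (0.63), dimethylglycine dehydrogenase, Aldh7a1 (0.59), which oxidises betaine aldehyde, and Bhmt2 (0.49), a homocysteine methyltransferase. Against C57BL/6J 4 of the 7 fell in A/J, 4 in BALB/cJ and 4 in C3H/HeJ, and 0 were called in DBA/2J. Sardh fell by 0.97 in A/J, 1.08 in BALB/cJ and 1.14 in C3H/HeJ on the log2 scale (limma adjusted p = 3e-05, 3e-06 and 8.59e-06). Gnmt, glycine N-methyltransferase, fell by 0.49 in A/J and 0.45 in C3H/HeJ, and Bhmt fell by 0.32 in A/J and 0.36 in BALB/cJ.

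In carnitine synthesis and transport 9 of 10 genes differed among strains. Shmt1 (share 0.71) fell by 0.72 in BALB/cJ, Aldh9a1 (0.66), which makes butyrobetaine, fell by 0.41 in A/J and 0.49 in BALB/cJ, and Bbox1 (0.62), which makes carnitine from it, fell by 0.40 in C3H/HeJ. All 10 measured genes of choline transport and phosphatidylcholine synthesis differed among strains, and Slc44a3, a choline transporter-like protein, rose by 1.08 in DBA/2J and 0.91 in C3H/HeJ. In bile acid handling 9 of 10 differed, and Slc10a1 fell by 0.86 in A/J, by 0.76 in BALB/cJ and by 0.92 in C3H/HeJ. Cyp8b1, the sterol 12-hydroxylase, fell by 1.53 in A/J, fell by 1.21 in BALB/cJ and fell by 1.24 in C3H/HeJ. Slc51b, of the same list, rose by 0.76 in A/J. In hypotaurine and taurine metabolism 6 of 7 differed, among them Slc6a13 (0.71), a taurine and GABA carrier, which fell by 0.37 in A/J and by 0.38 in BALB/cJ. Slc6a6 rose by 0.36 in A/J. All 9 measured microsomal oxidation partners and 10 of 11 nuclear receptors and liver transcription factors differed among strains. Cyp2f2 fell by 1.59 in A/J, fell by 1.48 in BALB/cJ and fell by 1.70 in C3H/HeJ. Of the microsomal partners 2 rose and 2 fell in BALB/cJ, with Aox1 (share 0.72) up by 0.96 and Ephx1 by 0.40. Aox3 (share 0.73) fell by 0.57 in DBA/2J. Ppara, the fatty acid sensor, fell by 0.62 in A/J, fell by 0.91 in BALB/cJ and fell by 0.69 in C3H/HeJ.

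Over the 64 genes 2 rose and 12 fell in A/J (beside 4.11% higher and 3.52% lower of all probe sets), 2 and 12 in BALB/cJ (3.93% and 3.01%), 2 and 9 in C3H/HeJ (3.5% and 2.36%), and 1 and 1 in DBA/2J (0.842% and 1.02%). Markers of other cell types were called in the same contrasts. Of 11 Kupffer cell and macrophage markers 5 rose in A/J, 1 in BALB/cJ and 2 in C3H/HeJ, where 1 fell. Of 10 stellate cell and fibroblast markers 0 rose and 1 fell in A/J, 3 and 1 in BALB/cJ, and 4 and 1 in C3H/HeJ. Of 6 cholangiocyte markers 1 rose in BALB/cJ and 4 in C3H/HeJ. Of 8 endothelial markers 3 fell in A/J, 6 in BALB/cJ and 2 in C3H/HeJ, and of 8 hepatocyte markers 1, 0 and 2. Their part in the pathway counts was not tested. None of the Fmo probe sets was among the calls in these contrasts, which share the C57BL/6J mice.

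Each of 23 lists was scored by the mean z-score of its genes per strain, and r with each member is given as a description over 96 strains. Of the 92 pairs 7 passed 0.5 in either direction, and all 7 involved Fmo1. Fmo1 went with female-biased liver genes (r = 0.73), bile acid genes (0.65), choline oxidation and betaine (0.63), carnitine (0.59) and nuclear receptors and liver transcription factors (0.55). It ran opposite to the scores of stellate cell and fibroblast markers (−0.62) and of cholangiocyte markers (−0.59). Of these markers 10 of 10 and 6 of 6 measured differed among strains, beside 47.9% of all probe sets. Within the stellate cell and fibroblast list r with Fmo1 ranged from −0.629 for Dcn to −0.108 for Reln and 0.179 for Lrat. Hepatocyte markers (0.41) and male-biased genes (0.41) also went with Fmo1. The part of cell composition in the Fmo1 differences was not tested. Single genes near Fmo1 were Dmgdh (0.71), Nr1i3 (0.67), the xenobiotic receptor CAR, Bbox1 (0.67), Nr1h4 (0.66), the bile acid receptor FXR, and Cdo1 (0.65), which supplies hypotaurine. Not every gene went the way of its list. In choline oxidation and betaine Chdh ran opposite to Fmo1 (−0.285). Among the bile acid genes Abcc2 (−0.32) and Slc51b (−0.314) did so.

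The other members followed these lists less. Fmo4 had r between −0.32 and 0.38 over the 23 lists, with 0.38 for microsomal oxidation partners and 0.38 for choline oxidation and betaine. Fmo2 lay between −0.26 (Kupffer cell and macrophage markers) and 0.27 (female-biased genes), and its r with the lung markers, all at low signal, was 0.23. Fmo5 lay between −0.26 (female-biased genes) and 0.25 (adipocyte markers).

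**Figure D5:**
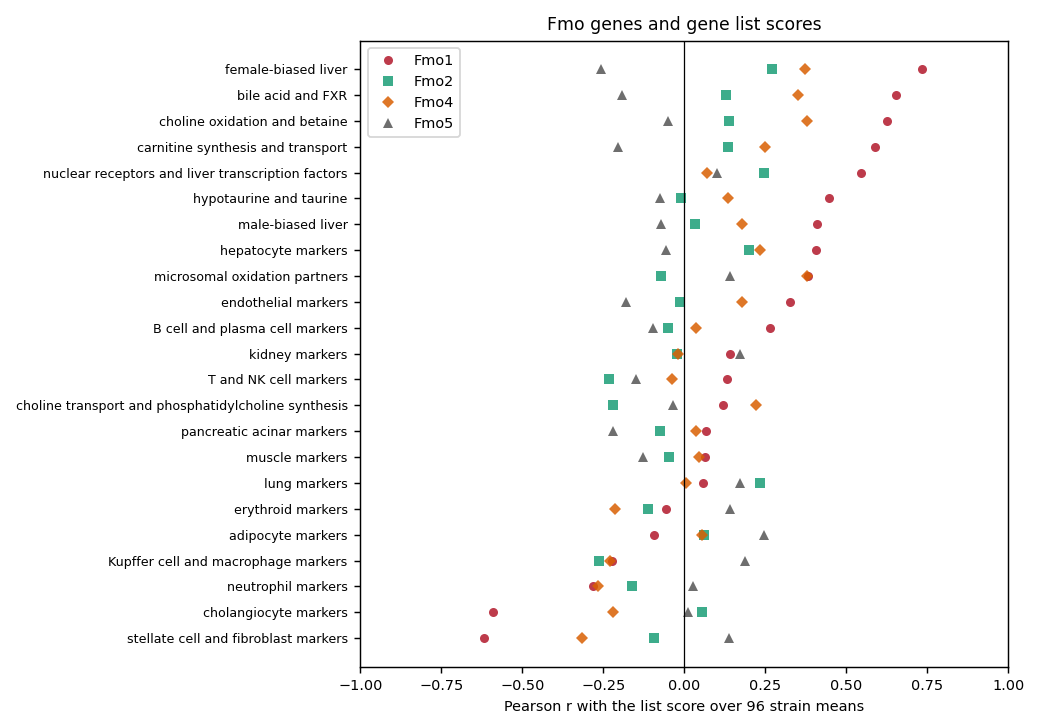
Pearson r of the strain means of Fmo1, Fmo2, Fmo4 and Fmo5 with the scores of 23 gene lists over 96 strains. Fmo1 reaches 0.73 with female-biased genes and −0.62 with stellate cell and fibroblast markers, and the other 3 genes stay within 0.5 of 0.

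Sample-wide measures were set beside the genes over strain means. The mean mouse number of a strain, taken from the labels, had r of 0.09 with Fmo1, −0.08 with Fmo2, 0.15 with Fmo4 and −0.11 with Fmo5. The array median had r of −0.25, 0.25, −0.29 and 0.07 with them in the same order. The first principal component of the strain means, which held 24.2% of the variance of above-median probe sets and was oriented so that the macrophage gene Cd68 rose, had r of −0.68 with Fmo1, −0.29 with Fmo4, −0.17 with Fmo2 and 0.14 with Fmo5. The part of this component in the Fmo1 pattern was not tested.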

How the data were processed

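RNA from 220 livers was measured with the HT MG-430 PM array of Affymetrix. The authors deposited a table of log2 signals, 1 per probe set and mouse, made with GCOS and RMA according to the submitters' processing notes. Their versions, and any batch correction, were not given in the sources used here. Array medians lay between 3.43 and 3.56, and the number of mice limits the precision. Of 45141 probe sets 104 controls were left out. Symbols came from the platform annotation (28898 probe sets with 1 symbol, 551 with several, 15588 with none) and gene order from RefSeq GRCm38.p6. The probe set of highest mean represented a gene.

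Groups were the maternal strains in the labels. Nothing says that mice of a strain came from separate litters, so p-values measure the spread between these mice. Tests used limma 3.58.1 (R 4.3.3) over 45037 probe sets, with 124 residual degrees of freedom in strain contrasts and Benjamini-Hochberg adjustment over all probe sets, and an adjusted p under 0.05 was called. Shares came from one-way random effects. Permutation tests were two-sided with 100000 resamples, or exact below 10 strains (Python 3.11.15, numpy 2.4.6, scipy 1.17.1). The scripts were tested on simulated data. The genes and lists were chosen with earlier results of these data known. Named were all members, up to 4 genes per pathway list by share of variance and genes called against C57BL/6J, the 5 closest and 3 most opposed genes per member, and strains that were extreme, called or progenitors; some of these were left unnamed for length. Some list genes whose r with Fmo1 departed from that of their list were named as well. Alternatives were array centring, a filter on dim probe sets, mouse number as covariate, left-out mice, strains with 2 or more mice, a random block, gene means, biweight midcorrelation and panel means removed.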

Additional observations from a re-analysis of the deposited data

Results flagged for a closer look

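The relation of Fmo2 and Fmo5 over strain means differed between panels: r was −0.41 in 34 BXD strains and 0.50 in 21 AXB/BXA strains. The difference of −0.916 was tested by permutation of the panel labels (adjusted p = 0.0173 over 18 differences). A search with Dixon's ratio for single values far from the rest of their group covered 27 groups and found 0, where chance gives about 1 in 20. For each of the 9 probe sets the groups were the CXB strain means, the BXH strain means and the mice of BXD20/TyJ. Strains of the other panels and mice of the other strains were not searched.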

How the results depend on the processing

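No paired analysis was possible because replicate numbers were given in accession order and pair no mice. The strain F-test called 8 probe sets under each alternative that kept single probe sets, 0 progenitor contrasts were called under any, and the list correlations past 0.5 numbered 7 under each. With mice as units and strain as a random block 13 of 45 panel tests were called, against 4 over strain means. The block fit used 1 correlation of 0.183 for all probe sets, below the shares of the brightest Fmo probe sets, so its added calls are less sure. Segregation calls numbered 6 to 20 when a replicate number was left out, against 22 or 23 in the same tests, since fewer strains then keep 2 mice; CXB and BXH without replicate 1 or 2, and BXH without replicate 3, had too few such strains to be fitted. Shares of variance were then 0.5939 to 0.8103 for Fmo1 and 0.5622 to 0.7686 for Fmo2.

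Leaving out 1 mouse changed the sign of some uncalled differences from C57BL/6J, with ranges of −0.2219 to 0.062 for Fmo4 in A/J, −0.0062 to 0.0748 for Fmo1 in DBA/2J, and in C3H/HeJ −0.2763 to 0.2186 for Fmo2, −0.1231 to 0.239 for Fmo4 and −0.0313 to 0.2265 for Fmo5. With the mean of all its probe sets Fmo5 was −0.0686 in A/J and −0.1835 in C3H/HeJ.

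Over strain means Fmo4 and Fmo5 missed the threshold without the 2 farthest strains (−0.2416), with centred arrays (−0.2335) and with panel means removed (−0.1665). With the mean of all probe sets Fmo1 and Fmo2 passed (0.2676), and the sign changed for Fmo2 and Fmo4 (0.1552), Fmo1 and Fmo5 (0.021) and Fmo2 and Fmo5 (−0.0192). Panel means removed gave 0.0096 for Fmo1 and Fmo5 and −0.0234 for Fmo2 and Fmo5, which also changed sign with biweight midcorrelation (−0.0111), strains of 2 or more mice (−0.0472) and centred arrays (−0.0049). Panel means removed and the mean of all probe sets for correlations and the F-test were chosen after seeing the data.

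Within panels, r over strain means for Fmo1 and Fmo4 was 0.3987 in classical strains, 0.4654 in AXB/BXA and 0.7471 in CXB, and for Fmo4 and Fmo5 −0.0706 in BXD, −0.401 in classical strains and −0.0289 in AXB/BXA, none past the threshold. The sign changed for Fmo4 and Fmo5 in CXB (0.0071), Fmo1 and Fmo2 in CXB (−0.0824), Fmo1 and Fmo5 in classical strains (0.0212) and AXB/BXA (0.3271), Fmo2 and Fmo4 in the same panels (0.0407 and 0.1748), and Fmo2 and Fmo5 in BXD (−0.4115) and classical strains (−0.0856). Among mice of a strain, r of Fmo1 and Fmo2 missed the threshold in BXD (0.3466), classical strains (0.454), CXB (0.5805) and BXH (0.4914) and changed sign in AXB/BXA (−0.0042). That of Fmo1 and Fmo4 missed it in BXD (0.4498), classical strains (0.1644), AXB/BXA (0.3902), CXB (0.2862) and BXH (0.1516), although rho passed for Fmo1 and Fmo2 in classical strains and for Fmo1 and Fmo4 in BXD. Fmo4 and Fmo5 passed in classical strains (−0.552) and changed sign in AXB/BXA (0.2124) and BXH (0.6834), as did Fmo1 and Fmo5 in AXB/BXA (0.2176), in BXH (0.1184) and with centred arrays (0.024), and Fmo2 and Fmo5 in CXB (0.13). The cause of these changes was not tested. Probe sets near background, such as the dim one of Fmo2, limit what can be seen.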
